A study of Mus musculus with 9 samples.

Results

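The genes described here are the 9 genes whose products write, copy, read or remove methyl groups on cytosine in the nucleus: Tet1, Tet2, Tet3, Dnmt1, Dnmt3a, Dnmt3b, Uhrf1, Uhrf2 and Tdg. They were taken by name from the 55414 genes of the deposited table, and all 9 were found, 1 row each. Their transcripts were measured in mouse round spermatids (RS), haploid germ cells of the testis, in 9 polyadenylated RNA libraries. All cells were kept for 24 h in the same medium with 0.15% DMSO. The vehicle libraries (numbered 1 to 3) received solvent without either compound, the oxamate libraries (4 to 6) received 24 mM oxamate, an inhibitor of lactate dehydrogenase, and the remaining libraries (7 to 9) received 24 mM oxamate together with 0.3 mM octyl-L2HG, a cell-permeable ester of L-2-hydroxyglutarate. The labels give the genotype as WT, and the methods describe sorting of RS by cell size and fading red fluorescence from adult mice in which a Stra8-driven Cre had switched on tdTomato, so a gate and not a surface marker defined the population. The cells of a group were incubated in triplicate, and whether the triplicates came from separate animals is not stated, so the p-values measure the spread between these libraries, which may be technical.

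DNA methylation in mammals is set by the de novo enzymes DNMT3A and DNMT3B and copied after replication by DNMT1, which UHRF1 guides to hemimethylated sites. UHRF2 is a close relative of UHRF1 that binds hydroxymethylcytosine. The TET enzymes oxidize methylcytosine stepwise, and TDG, a DNA glycosylase, cuts out the last oxidized forms so that repair can insert an unmodified cytosine. The TET enzymes need alpha-ketoglutarate as a co-substrate, and L-2HG, which resembles it, can compete with it. Methylation patterns of the male germ line are laid down long before the spermatid stage, and spermatids no longer replicate their DNA.

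The labelled cell type was checked first. All 10 round spermatid markers were detected, with a summed level of 2500 to 2525 CPM (counts scaled by the library total) in vehicle, 2456 to 2508 in oxamate and 2289 to 2358 in oxamate with octyl-L2HG. The 7 markers of elongating spermatids, the next stage, were detected as well, and their sum was 2390.5 to 2417 CPM in vehicle, 2121 to 2251.5 in oxamate and 1798 to 1940.2 with both compounds, with no overlap between the groups. The 9 spermatocyte markers summed to 666 to 746, 644 to 704 and 648 to 681 CPM. The 9 spermatogonial markers summed to 13.4 to 15.4 CPM over all libraries. The lists for Sertoli cells, Leydig cells, peritubular myoid cells and leukocytes each stayed at or below 4.54 CPM. The leukocyte list reached the highest of these sums, with Adgre1 at a mean of 1.88 CPM and Lyz2 at 0 in every library. The libraries held between 32339533 and 39888396 counted reads. Counts of oxamate library 4 differed the most from those of its group, where the chi-square divided by its degrees of freedom was 23.3 against library 6 and 2.1 between libraries 5 and 6.

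Uhrf1, Uhrf2, Dnmt3a and Tdg are the members with 239 reads or more that were called in at least 1 comparison, Tdg with the fewest. The DNA just before their outermost annotated starts is shown. Which start was used in these cells was not measured. The sequences are RefSeq windows of 250 bases upstream of the outermost annotated start, build GRCm38.p6, read 5′ to 3′ on the strand of the gene. Capitals mark CpG dinucleotides, at which cytosine can be methylated. All 4 lie on the plus strand, Uhrf1 at chr17:56303087-56303336, Uhrf2 at chr19:30030263-30030512, Dnmt3a at chr12:3806730-3806979 and Tdg at chr10:82629588-82629837.

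Uhrf1: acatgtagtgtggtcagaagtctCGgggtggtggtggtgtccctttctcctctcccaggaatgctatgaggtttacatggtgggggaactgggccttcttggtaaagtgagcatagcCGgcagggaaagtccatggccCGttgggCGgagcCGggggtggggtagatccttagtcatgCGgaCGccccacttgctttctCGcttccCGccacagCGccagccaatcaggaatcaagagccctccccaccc

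Uhrf2: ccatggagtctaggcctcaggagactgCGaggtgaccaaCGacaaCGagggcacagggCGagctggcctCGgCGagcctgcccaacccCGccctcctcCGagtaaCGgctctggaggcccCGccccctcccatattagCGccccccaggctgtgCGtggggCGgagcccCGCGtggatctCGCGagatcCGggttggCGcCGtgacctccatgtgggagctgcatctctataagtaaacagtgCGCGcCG

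Dnmt3a: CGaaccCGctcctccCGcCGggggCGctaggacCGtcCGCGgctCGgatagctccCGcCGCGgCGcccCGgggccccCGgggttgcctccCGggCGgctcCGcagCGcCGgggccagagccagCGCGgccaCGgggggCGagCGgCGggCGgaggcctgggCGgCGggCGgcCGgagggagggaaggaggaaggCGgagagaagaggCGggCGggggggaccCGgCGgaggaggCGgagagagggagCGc

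Tdg: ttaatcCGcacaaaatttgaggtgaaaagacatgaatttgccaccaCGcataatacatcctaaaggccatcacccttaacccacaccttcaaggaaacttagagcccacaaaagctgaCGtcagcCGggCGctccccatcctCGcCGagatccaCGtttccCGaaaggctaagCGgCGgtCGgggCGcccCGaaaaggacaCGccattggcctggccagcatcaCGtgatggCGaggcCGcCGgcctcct

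These windows held 10 CpG sites for Uhrf1, 23 for Uhrf2, 38 for Dnmt3a and 19 for Tdg, where the median over 32841 RefSeq windows of this length was 6. The second annotated start of Uhrf1 lay further downstream, and its window held 30. The largest number among the 9 genes, 51 sites, stood before Tet2, a gene with 15 reads in all. The letters TGACGTCA, the full cAMP response element, were found in the Tdg window and in no other window of the 9 genes, and 1.55% of all windows hold them. The GC box GGGCGG, searched on both strands as all motifs were, was present in the windows of Uhrf1, Uhrf2 and Dnmt3a and absent from that of Tdg, against 32.7% of all windows. CCAAT was present in the windows of Uhrf1 and Tdg, against 33.9% of all windows. TTTCCCGC and TTTGGCGC, forms of the E2F site, were in none of the members' windows, and in 0.895% and 0.417% of all windows.

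The transcripts of this machinery were present in the RS libraries at very unequal levels. Markers of other cell types were detected as well, and the part of such cells in these levels was not tested. On the TPM scale, which divides counts by gene length and library total and so allows genes to be compared, the mean level over the 9 libraries was 79.9 for Uhrf1, 3.87 for Uhrf2, 1.89 for Dnmt1, 0.422 for Dnmt3a, 0.420 for Tdg and 0.229 for Dnmt3b. The 3 TET genes stood far below, at 0.0206 for Tet3, 0.00984 for Tet1 and 0.00839 for Tet2. Uhrf1 was thus higher than 90.1% of the 25032 genes ranked, Dnmt1 than 50.7%, and Tet3 than 1.0%.

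**Figure D1:**
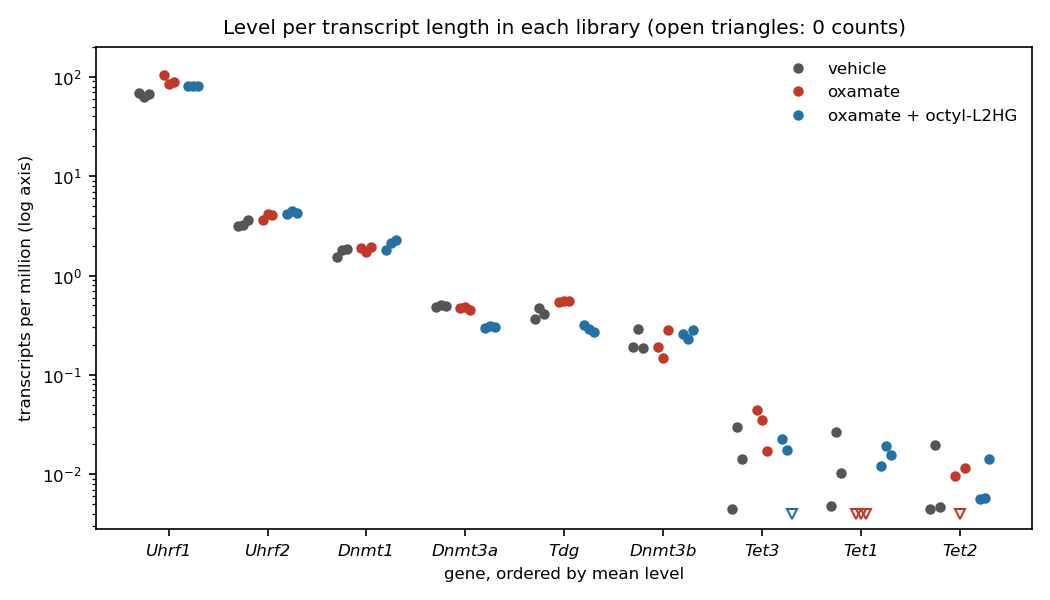
Level of each gene per transcript length (TPM, log axis) in each of the 9 libraries, with genes ordered by their mean and colours for the 3 groups; open triangles at the bottom mark libraries with 0 counts. Uhrf1 lies between 62.6 and 104 TPM, no other gene exceeds 4.50 TPM, and the 3 TET genes lie below 0.0441 TPM.

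The TPM ranges of Uhrf1, Uhrf2 and Dnmt1 did not overlap one another. Uhrf1 ran from 62.6 to 104, Uhrf2 from 3.18 to 4.50 and Dnmt1 from 1.53 to 2.27. Dnmt3a (0.299 to 0.505) and Tdg (0.270 to 0.556) overlapped, Dnmt3b (0.149 to 0.291) overlapped Tdg and lay below every value of Dnmt3a, and the order of the TET genes among themselves could not be told from their spread. When the longest transcript was used as the length in place of all exons, a choice made after the data were seen, Uhrf2 came to 7.52 TPM and Dnmt3a to 0.580, and Tet2 (0.0123) passed Tet1 (0.00846), while the order of the other genes was the same. In each library Uhrf1 exceeded its paralog Uhrf2 between 17.8 and 28.8 times in TPM with all exons as the length, with the highest ratio in oxamate library 4. With the longest transcript the mean of Uhrf1 was 75.9 TPM against the 7.52 of Uhrf2, a smaller ratio.

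Of the 9 genes, 1 was called between oxamate and vehicle at a threshold of 0.05 on the adjusted p of the edgeR fit, Uhrf1, which rose. Over all 25128 genes tested, 5.19% were called in that comparison, 3.97% as raised and 1.22% as lowered, and 17.3% had an unadjusted p under 0.05. Between oxamate with octyl-L2HG and oxamate alone 3 genes were called, Dnmt3a and Tdg as lowered and Tet1, on 8 reads against 0, as raised, where 11.2% of all genes were called, 3.18% as raised and 8.06% as lowered. Between oxamate with octyl-L2HG and vehicle Uhrf1 and Uhrf2 were called as raised and Dnmt3a as lowered, where 18% of all genes were called, 7.48% as raised and 10.6% as lowered. The 3 comparisons share libraries in pairs, so they are not independent of one another. The test for any difference among the groups called 4 members (Uhrf1, Dnmt3a, Uhrf2 and Tdg), with 19.8% of all genes called. In bulk RNA, fewer cells of a type and less RNA per cell cannot be told apart.

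The groups did not overlap at all for more genes than were called. For oxamate against vehicle this held for 4 of the 9 genes, 2 higher and 2 lower, beside 21.3% of all genes (11.4% higher and 9.95% lower). For the addition of octyl-L2HG to oxamate it held for 5, 2 higher and 3 lower, beside 28.8% of all genes (13.4% higher and 15.3% lower). For both compounds against vehicle it held for 4, beside 36.5%. The median log2 fold change of the 9 genes was 0.08, 0.15 and 0.18 in the 3 comparisons, and that of all genes was -0.01, -0.04 and -0.04.

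**Figure D2:**
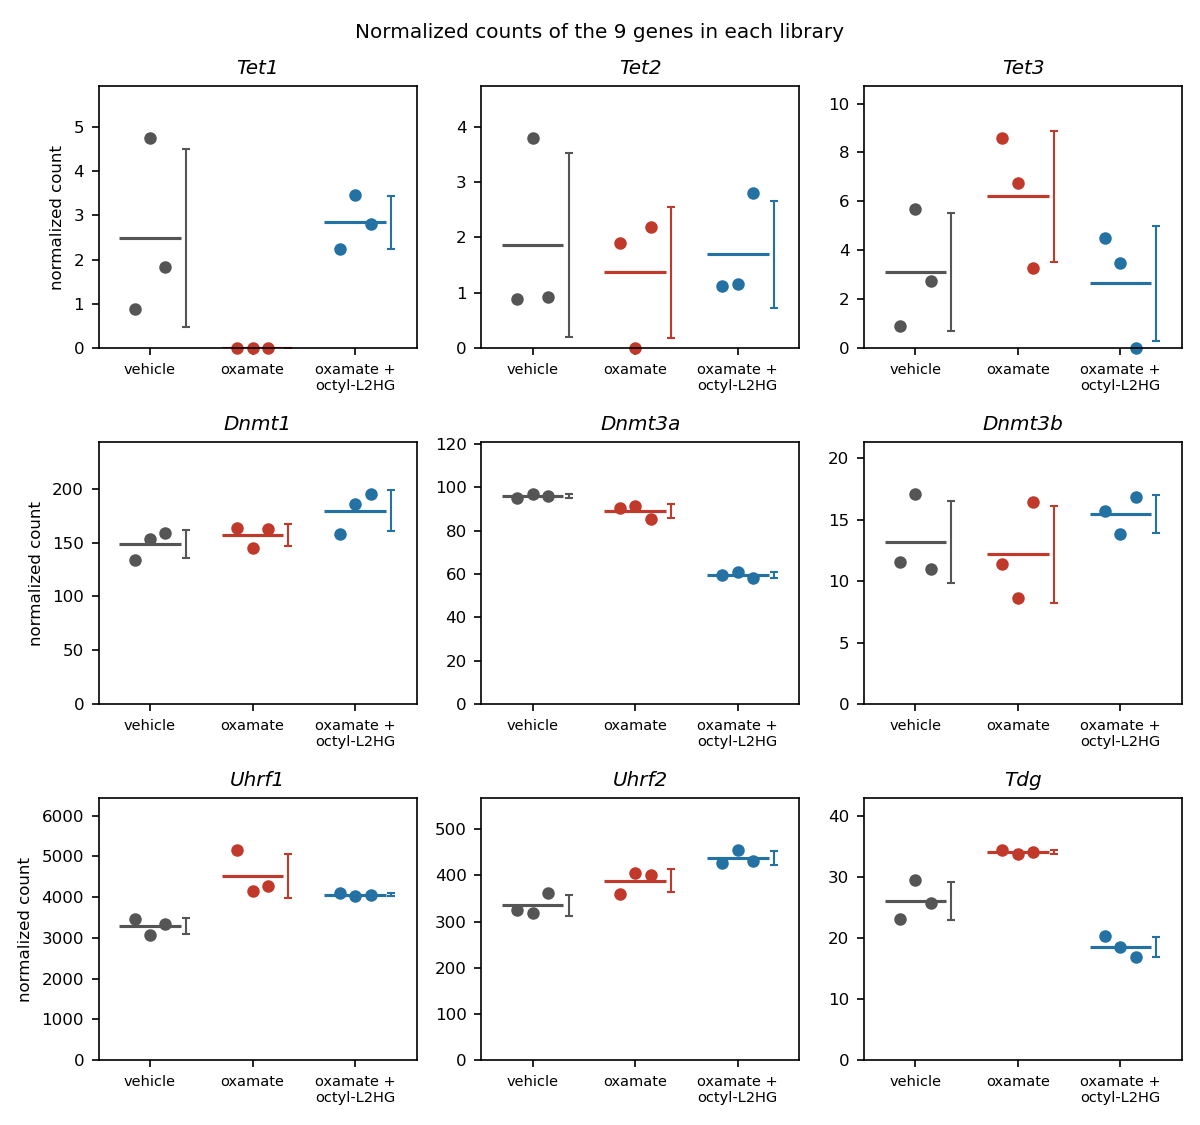
Normalized counts (counts scaled to a common depth by 1 size factor per library) of the 9 genes in each library, 1 panel per gene with its own linear axis from 0; points are libraries in order of their number, horizontal lines are group means and the bars beside them the SD (n = 3). Uhrf1 is lowest in the 3 vehicle libraries, Dnmt3a is lowest in the 3 libraries with both compounds, Tdg is highest in the 3 oxamate libraries, and Tet1 is at 0 in all 3 oxamate libraries.

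The maintenance genes held the largest counts. Uhrf1 (ENSMUSG00000001228), the reader of hemimethylated DNA, had normalized counts of 3460, 3065 and 3345 in vehicle, 5148, 4155 and 4281 in oxamate, and 4093, 4017 and 4052 in oxamate with octyl-L2HG. Every oxamate library was above every vehicle library, and the libraries with both compounds lay between the 2 groups without touching either. Oxamate library 4 was the highest of all 9.

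Uhrf1 was 1.38-fold higher with oxamate than with vehicle (log2 fold change 0.47, SE 0.08, adjusted p = 0.000776 by edgeR, and 5.9e-06 by DESeq2). The rise was called under all 16 alternatives, with log2 fold changes from 0.36 to 0.53, and without library 4 it was 0.36 (adjusted p = 8.21e-05). With octyl-L2HG added the level was 0.879 times that with oxamate alone (log2 fold change -0.19, 95% interval -0.35 to -0.02), and this difference was not called (adjusted p = 0.139). Without library 4 it came to -0.08 (adjusted p = 0.435). Against vehicle, Uhrf1 was still 1.21-fold higher with both compounds (0.28, SE 0.08, adjusted p = 0.0148), and this call was lost without vehicle library 2 and without any 1 of libraries 7, 8 and 9, with adjusted p-values of 0.0857, 0.0601, 0.0511 and 0.0567.

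Uhrf2 (ENSMUSG00000024817) followed another course. Its normalized counts were 325, 317 and 362 in vehicle, 360.1, 404 and 401 in oxamate, and 428, 454 and 431 with both compounds. The oxamate values overlapped those of vehicle at 1 library each, and the 3 values with both compounds were the highest of all. The order of the group means was the reverse of that of the summed elongating spermatid markers, and the part of those markers was not tested.

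The difference between oxamate and vehicle in Uhrf2 was 0.22 on the log2 scale (95% interval 0.03 to 0.40) and was not called (adjusted p = 0.189 by edgeR). The step from oxamate to both compounds was 0.15 (adjusted p = 0.343). Their sum, 0.36 (SE 0.09, 1.29-fold) for both compounds against vehicle, was called (adjusted p = 0.00546), and it remained called under all 16 alternatives (0.25 to 0.43). The lowest of these values came from a correction for transcript length.

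Dnmt1 (ENSMUSG00000004099), the maintenance methyltransferase itself, had normalized counts of 134, 154 and 158 in vehicle, 164, 145 and 162 in oxamate, and 158, 186 and 195 with both compounds. The 3 groups overlapped. The log2 fold changes were 0.08 (95% interval -0.16 to 0.33, adjusted p = 0.792), 0.17 (-0.07 to 0.42, adjusted p = 0.423) and 0.26 (0.01 to 0.50, adjusted p = 0.145) for oxamate against vehicle, both compounds against oxamate and both compounds against vehicle, and none of the 16 alternatives called any of them. On the TPM scale the ratio of Uhrf1 to Dnmt1 was 34.6 to 44.7 in vehicle, 45.7 to 54.4 in oxamate and 36.0 to 44.8 with both compounds.

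**Figure D3:**
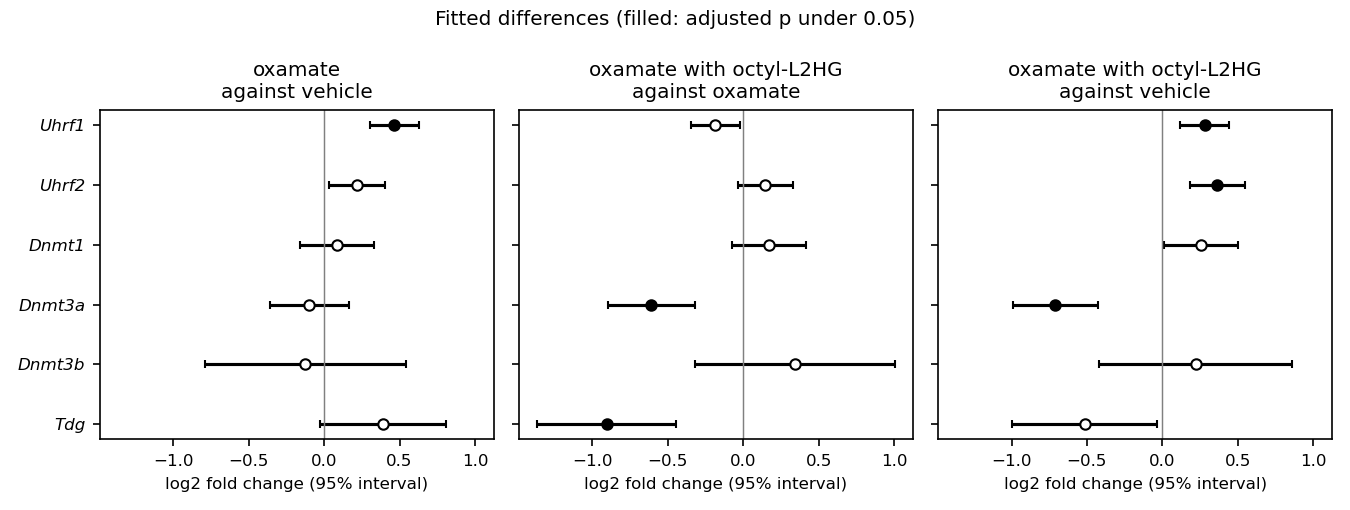
Fitted log2 fold changes of the 6 genes above the TET genes, in the 3 comparisons, with bars for the 95% interval of the edgeR fit (n = 3 libraries per group) and filled points for an adjusted p under 0.05. Uhrf1 lies above 0 with oxamate, Dnmt3a and Tdg lie below 0 where octyl-L2HG was added to oxamate, and the intervals of Dnmt3b are wide.

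Of the de novo methyltransferases, Dnmt3a (ENSMUSG00000020661) was lower with both compounds than in the other groups. No group received octyl-L2HG without oxamate. Its normalized counts were 95.1, 96.7 and 96.2 in vehicle, 90.5, 91.4 and 85.5 in oxamate, and 59.5, 61.1 and 58.0 with both compounds. The vehicle and oxamate groups did not overlap but lay close together, and the 3 libraries with both compounds were below all of the others by a wide margin.

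With both compounds the level of Dnmt3a was 0.655 times that with oxamate (log2 fold change -0.61, SE 0.14, adjusted p = 0.00641 by edgeR and 0.0203 by DESeq2) and 0.611 times that with vehicle (-0.71, SE 0.14, adjusted p = 0.000736). Both calls remained under all 16 alternatives, from -0.65 to -0.56 and from -0.85 to -0.66. Between oxamate and vehicle the log2 fold change was -0.10 (95% interval -0.36 to 0.16, adjusted p = 0.759). Dnmt3aos, which overlaps Dnmt3a on the opposite strand by 133 exon bases, held 5 reads in all. The TPM ratio of Dnmt1 to Dnmt3a was 3.18 to 3.72 in vehicle, 3.59 to 4.28 in oxamate and 6.002 to 7.57 with both compounds. The fall of Dnmt3a went together with the fall of the summed elongating spermatid markers, and the part of the latter in the result was not tested.

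Dnmt3b (ENSMUSG00000027478) was counted at 43 reads over the 3 vehicle libraries, 36 over the oxamate libraries and 44 over the libraries with both compounds. Its normalized counts were 11.6, 17.1 and 11.0 in vehicle, 11.4, 8.66 and 16.4 in oxamate, and 15.7, 13.8 and 16.9 with both compounds. All 3 groups overlapped, and the log2 fold changes were -0.12 (95% interval -0.79 to 0.54), 0.34 (-0.32 to 1.01) and 0.22 (-0.42 to 0.86), with adjusted p-values of 0.897, 0.582 and 0.693. These intervals were wider than those of Dnmt1 in all 3 comparisons.

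The glycosylase gene Tdg (ENSMUSG00000034674) was highest with oxamate. Its normalized counts were 23.1, 29.4 and 25.6 in vehicle, 34.3, 33.7 and 34.0 in oxamate, and 20.2, 18.4 and 16.9 with both compounds. No group overlapped another, with oxamate on top and the libraries with both compounds at the bottom.

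The fall of Tdg from oxamate to both compounds was called, to 0.534 times the level (log2 fold change -0.91, SE 0.22, adjusted p = 0.0104 by edgeR and 0.0447 by DESeq2). It was called under 15 of 16 alternatives and lost without library 9 (-0.84, adjusted p = 0.0517). The difference between oxamate and vehicle, 0.39 (95% interval -0.03 to 0.81, adjusted p = 0.329), and that between both compounds and vehicle, -0.52 (-0.99 to -0.04, adjusted p = 0.141), were not called. Its reads were few, 85, 102 and 52 over the 3 groups.

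Exons of Tdg share 367 bases with those of Glt8d2, which lies on the opposite strand. The methods name a stranded library kit, but the strand setting of the counting is not given in the sources used here. Reads of the shared bases therefore cannot be assigned to a gene with certainty. Glt8d2 held 2034 reads over the 9 libraries. Its log2 fold change was 0.29 with oxamate against vehicle (adjusted p = 0.137), -0.30 with octyl-L2HG added to oxamate (adjusted p = 0.0868) and -0.005 with both compounds against vehicle (adjusted p = 0.983), none of them called. The first 2 had the sign of those of Tdg and were smaller. The part of Glt8d2 reads in the Tdg values was not tested.

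Transcripts of the 3 TET genes were at the limit of detection. Together they took 67 reads over all 9 libraries, with 3, 15 and 6 in vehicle, 11, 7 and 5 in oxamate and 7, 7 and 6 with both compounds. The largest of these sums was that of vehicle library 2. All 3 genes passed the filter of at least 10 reads over the 9 libraries, Tet2 with 15 and Tet1 with 16, just inside it, and Tet3 with 36.

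Tet1 (ENSMUSG00000047146), the dioxygenase with a CXXC domain, was counted at 1, 5 and 2 reads in vehicle, at 0 reads in each of the 3 oxamate libraries, and at 2, 3 and 3 reads with both compounds. The 8 reads in vehicle amount to 0.0693 CPM (95% exact Poisson interval 0.0299 to 0.137), and the 8 with both compounds to 0.0757 (0.0327 to 0.149). The 0 of 106934812 reads in oxamate allow up to 0.0281 CPM, taken as 3 counts over the group, and these limits cover counting error only. The exact Poisson interval of the oxamate group reached 0.0345 CPM, above the lower ends of the intervals of both other groups.

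The quasi-likelihood test called Tet1 between oxamate and both compounds (adjusted p = 0.0444) and did not call it between oxamate and vehicle (adjusted p = 0.0918). The call was lost in 7 of the 9 fits that left out a library, with adjusted p-values up to 0.122 without library 5, and remained in 2, those without vehicle library 1 and without vehicle library 2. DESeq2 gave no adjusted p-value for Tet1, and a stricter filter removed the gene. The test for any difference among the groups gave an adjusted p-value of 0.0557.

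Tet2 (ENSMUSG00000040943), which lacks a CXXC domain of its own, was counted at 1, 4 and 1 reads in vehicle, 2, 0 and 2 in oxamate and 1, 1 and 3 with both compounds. The groups overlapped, the adjusted p-values lay at 0.888, 0.885 and 0.969, and the sign of each difference changed when single libraries were left out. No difference in Tet2 was detectable at this depth, at which the 95% interval for oxamate against vehicle ran from -2.39 to 1.54 on the log2 scale.

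Tet3 (ENSMUSG00000034832), the form known for oxidizing the paternal genome after fertilization, was counted at 1, 6 and 3 reads in vehicle, 9, 7 and 3 in oxamate and 4, 3 and 0 with both compounds. The oxamate group held the highest library, and all groups overlapped. The group sums of 10, 19 and 7 reads gave log2 fold changes of 1.02 (95% interval -0.33 to 2.37, adjusted p = 0.459) for oxamate against vehicle and -1.33 (-2.80 to 0.14, adjusted p = 0.269) for the addition of octyl-L2HG.

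To place these genes in their pathway, a list of 86 genes that act with them was read from the same fit, of which 79 were tested. With oxamate against vehicle 6 were raised and 0 lowered (7.59%, beside 5.19% of all genes), and at an unadjusted p under 0.05 the counts were 11 raised and 5 lowered, beside 2558 and 1790 of all 25128 genes. DESeq2 gave 6 and 0 as well. Fits without a library gave between 3 and 10 called genes, with 10 without oxamate library 4 and 3 without vehicle library 2 or library 8. Among the 10715 genes whose normalized counts averaged 100 or more, 9.67% were called in this comparison. The list's median log2 fold change was 0.01, beside -0.01 for all genes.

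**Figure D4:**
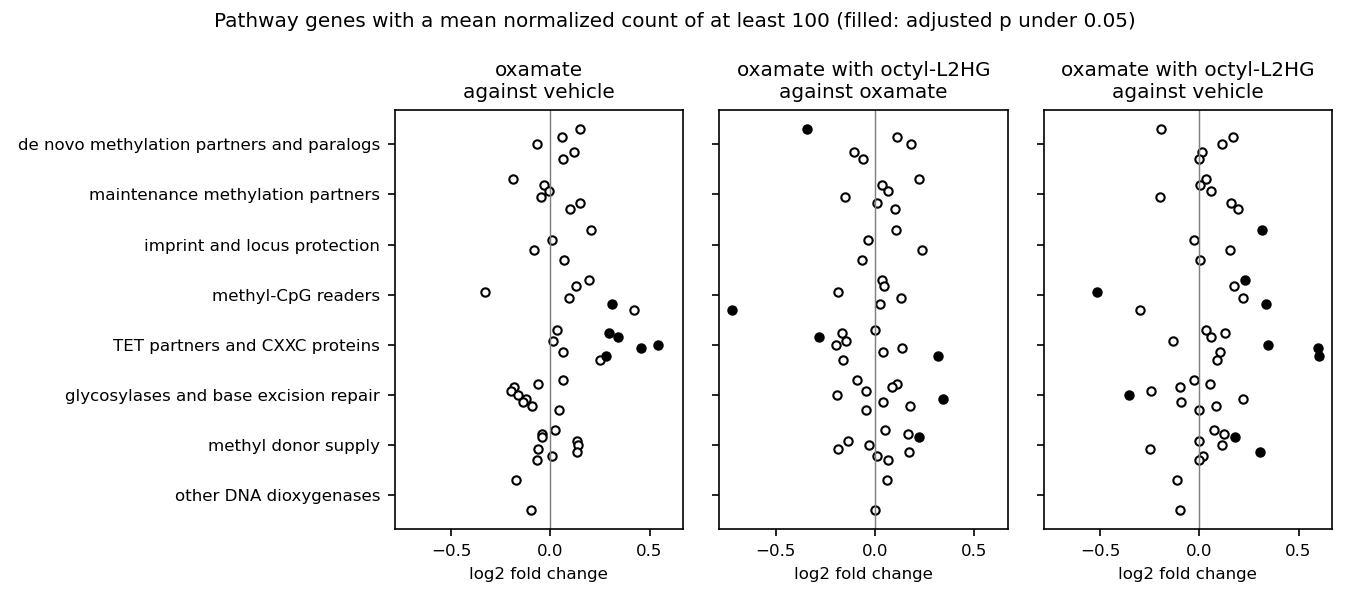
Log2 fold changes of the 50 listed pathway genes averaging 100 normalized counts or more, by role and comparison; filled points passed an adjusted p of 0.05. With oxamate against vehicle, 5 of the 6 filled points lie in the row of TET partners and CXXC proteins, all to the right of 0.

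Of the 6 raised pathway genes, 5 were among the 11 tested partners of TET enzymes and CXXC proteins, and this group had a median log2 fold change of 0.25. Over all genes 3.97% were raised, and of the 10715 genes averaging 100 or more 866 were raised. Whether this role differs from the others was not tested. Hcfc1, a chromatin co-factor that is modified by OGT, the TET-bound sugar transferase, rose from 575 ± 80.4 to 836 ± 40.0 normalized counts (SD, n = 3; log2 fold change 0.54, SE 0.09, adjusted p = 0.000636). Dcaf1, the substrate receptor of a ubiquitin ligase that acts on TET proteins, rose from 3576 to 4513 (0.34, adjusted p = 0.00437). Cxxc5, a zinc finger protein that binds unmethylated CpG, rose by 0.30 (adjusted p = 0.00458); it fell outside the rule for named genes and is named after its values were seen.

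The other 2 of these rises were called in fewer alternatives than those of Hcfc1 and Dcaf1, which all 16 called, and Cxxc5 was not run through them. Hmces, which protects abasic sites, rose by 0.46 (adjusted p = 0.0325) and was called in 9 of 16 alternatives, and Kdm2a, a histone demethylase with a CXXC domain, rose by 0.28 (adjusted p = 0.0328) and was called in 5. Ogt itself was not called (0.25, adjusted p = 0.0759), nor were Idh1 (0.06, adjusted p = 0.855) and Idh2 (0.07, adjusted p = 0.964), whose products make alpha-ketoglutarate. The sixth gene of the list to rise was the methyl-CpG binding family member Mbd6 (0.31, adjusted p = 0.0273), called in 10 of 16 alternatives.

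With octyl-L2HG added to oxamate, 3 pathway genes were raised and 5 lowered (10.1%, beside 11.2% of all genes and 19.8% of those averaging 100 or more), with a median of 0.02. This split depended on the scaling, with 5 raised and 4 lowered under DESeq2 size factors and 2 raised and 6 lowered under total counts, and DESeq2's own test gave 6 and 3. Leaving out a library gave between 2 and 13 called genes, with 2 without library 5, 3 without library 7, 4 without library 6, 5 without library 8 and 13 without library 4. Dnmt3l, the catalytically inactive partner of DNMT3A, went from 441 ± 12.8 in vehicle to 487 ± 27.1 in oxamate and 391 ± 20.1 with both compounds. It was lowered in the last step (log2 fold change -0.34, SE 0.09, adjusted p = 0.0119), a call lost without library 5 or library 7, and not called for oxamate against vehicle (0.15). Zbtb4, a zinc finger reader of methylated DNA, fell by 0.72 (SE 0.15, adjusted p = 0.0035), and this was called under all 16 alternatives.

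Dcaf1 fell by 0.28 (adjusted p = 0.0111, lost without library 5 or library 7). Smug1, a uracil and hydroxymethyluracil glycosylase, and Apex2, an endonuclease of abasic sites, were the other lowered genes, at log2 fold changes of -1.62 and -0.87 with mean normalized counts of 11.1 and 16.7, and are named after their values were seen. Their adjusted p-values by edgeR were 0.0154 and 0.0481, and DESeq2 did not call Apex2 (0.141) and gave no adjusted p for Smug1. Kdm2a rose further, from 758 ± 33.0 to 963 ± 10.8 (0.32, adjusted p = 0.008, lost without library 5). Parp1, a sensor of DNA breaks in base excision repair, rose by 0.34 (adjusted p = 0.0102), and Ahcyl2, a relative of the enzyme that removes the by-product of methylation, by 0.22 (adjusted p = 0.023). The Parp1 call was lost without library 5, 6 or 8, and that of Ahcyl2 was called in 9 of 16 alternatives.

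With both compounds against vehicle, 8 pathway genes were raised and 3 lowered (13.9%, beside 18% of all genes and 29.5% of those averaging 100 or more), with a median of 0.03. Leaving out a library gave between 6 and 18 called genes, with 6 without library 7, 7 without vehicle library 2 and 18 without oxamate library 4. Kdm2a (0.60, adjusted p = 8.6e-06) and Hmces (0.60, adjusted p = 0.00149) rose the most, and Ctcf, which binds imprint control regions when they are unmethylated, rose by 0.31 (adjusted p = 0.00551). Mbd4, the other glycosylase that acts on thymine opposite guanine, fell from 338 to 239 normalized counts (-0.52, SE 0.11, adjusted p = 0.00135), which all 16 alternatives called. Its mean was 269 with oxamate, so its order over the groups was that of the summed elongating spermatid markers, as was that of Ogg1 (516, 459.7 and 409.95). The part of those markers was not tested for these or for the other lowered or raised genes. Ogg1, the 8-oxoguanine glycosylase, fell by 0.35 (adjusted p = 0.0103) and lost its call without vehicle library 1 or library 7, and Trdmt1, the tRNA methyltransferase paralog of the DNMT family, fell by 0.52 at a mean normalized count of 67.2 (adjusted p = 0.0318 by edgeR, not called by DESeq2 at 0.076), named after its values were seen. Hcfc1 (0.35), Mbd6 (0.34), Mbd2 (0.23) and Ahcyl2 (0.18) were also raised. Hcfc1 lost its call with a correction for transcript length and without vehicle library 2, Mbd6 without library 7, and Mbd2 and Ahcyl2 were each called in 7 of 16 alternatives. The split was 10 raised and 3 lowered under DESeq2 size factors, 6 and 8 under total counts, and 11 and 2 by DESeq2's own test. None of the 8 maintenance partners tested was called in any of the 3 comparisons by edgeR, beside 5.19%, 11.2% and 18% of all genes, and 1 of them had an unadjusted p under 0.05 in each. DESeq2 gave an adjusted p for all but 1 of them, Cdca7, and called none.

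The genes whose profile over the 9 libraries was most like that of Uhrf1, among 10714 genes averaging 100 normalized counts or more, were Ccnd3 (Pearson r of log2 CPM 0.99), Prss46 (0.99) and Itpkb (0.98). For Dnmt3a they were Slc4a2 (0.99), Trim80 (0.99) and Sppl2c (0.99). These are the extremes of many coefficients over 9 libraries that share their groups and depth, and they are a description with no test.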

How the data were processed

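RNA of round spermatids was sequenced in 9 libraries, 3 per group. Reads were trimmed with cutadapt 2.10, aligned with TopHat 2.1.1 to the mouse genome and counted per gene with htseq-count 2.01, as the methods and the submitters' processing notes give it. The notes list the mouse build GRCm39 beside the worm build WBcel235, and the methods spell the build differently. The sequencing instrument differs between the labels and the methods. The authors deposited the raw count of reads per gene and, beside it, a normalized signal, the same count scaled by 1 factor per library from DESeq2 1.36.0. No column of values was left unused. Of the 55414 genes listed, 6250 have no counts.

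Tests were run in R 4.3.3 with edgeR 4.0.16 on the 25128 genes that reached 10 counts over all libraries (TMM normalization, 1 robust quasi-likelihood fit of all 9 libraries with the group as the only term, Benjamini-Hochberg adjustment over all genes, threshold 0.05). Standard errors and 95% intervals came from the same fit. TPM used the exon length of GENCODE annotation for GRCm38, in which 99.6% of tested genes were found by identifier, without its coordinates. Promoter windows came from RefSeq (GRCm38.p6). Alternatives were DESeq2 1.42.0, scaling by its size factors or by total counts, other filters, fits of the compared groups alone, a correction for transcript length and each library left out in turn. Tested on simulated data for oxamate against vehicle with 24537 genes, the fit called 99 of 100 genes raised 2-fold, 24 of 100 raised 1.3-fold and 4 unchanged genes. The changed genes were drawn only from genes with more reads than Tdg, Dnmt3b and the TET genes, so these members are not covered. The simulated spread between libraries was set by a formula and not estimated from these libraries.

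The 9 genes, the pathway and marker lists and the tests were chosen with earlier results of these data known. Pathway genes are named by rule: up to 4 per role averaging 100 normalized counts or more and with a call in a pairwise comparison, by the smallest p for any difference. One further gene chosen this way is not reported here. No library was a copy of another.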

Additional observations from a re-analysis of the deposited data

How the results depend on the processing

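No paired analysis was possible because the libraries carry the numbers 1 to 9 and no number is shared between groups. Over the fits that left out 1 library each, the count of called members was 1 to 1 for oxamate against vehicle, 1 to 3 for octyl-L2HG added to oxamate (1 without library 9), 2 to 3 for both compounds against vehicle and 2 to 5 for any difference (2 without library 8). The called pathway genes ranged from 3 to 10, from 2 to 13 and from 6 to 18 in the 3 comparisons, and the called genes overall from 659 to 2288, from 1396 to 4415 and from 2970 to 6194. With only the groups compared in the fit, 745 genes and 3 pathway genes were called for oxamate against vehicle, and 18 pathway genes for both compounds against vehicle, and the cause was not tested. Signs turned in genes of few reads and without a call, each time with a library left out. For oxamate against vehicle, Tet2 ranged from -0.85 to 0.52 (positive without library 2, 0.52, and without library 5, 0.15) and Dnmt3b from -0.37 to 0.10 (0.10 and 0.07 without the same libraries). For octyl-L2HG added to oxamate, Tet2 ranged from -0.24 to 0.78 (-0.22 without library 5, -0.24 without library 9). For both compounds against vehicle, Tet1 ranged from -0.22 (without library 1) to 0.99, Tet2 from -0.66 to 0.87 (0.87, 0.14 and 0.13 without libraries 2, 7 and 8) and Tet3 from -0.94 to 0.42 (0.42 and 0.34 without libraries 2 and 9). Scaling by total counts shifted the median of all genes to -0.11 for both compounds against vehicle. The same scaling added Uhrf1 to the members lowered when octyl-L2HG was added to oxamate (-0.23, adjusted p = 0.0449 by edgeR). The share of called genes that rose moved with the scaling, from 28.3% with TMM to 37.7% with DESeq2 size factors and 14.3% with total counts for octyl-L2HG added to oxamate, and from 41.4% to 46.9% and 26.8% for both compounds against vehicle. Few reads limited the comparisons of Tet1, Tet2, Tet3 and Dnmt3b.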
